A study of Mus musculus with 20 samples.

Results

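The dermis and the epidermis of control skin wounds were compared in samples of the same 3 mice, which gave 6 of the 20 libraries of the series. The main tests did not pair the tissues by animal, and a fit with the animal as a block was an alternative. The 3 dermal and 3 epidermal libraries were taken by their labels (animals Con-9097, Con-9098 and Con-9229, with the same number in both tissues), and no measured value entered the choice. Control mice were labelled wild type, of mixed strain and 4-5 week old, and received tamoxifen like the Shh mice. Their small wounds were collected 2 days after the scab had come off and were soaked in 20 mM EDTA, which loosens the basement membrane so that the epidermis can be peeled from the dermis. The tissue difference of control wounds was then set beside that of 3 Shh wounds and of 4 E14.5 skins. Shh mice carried K14-CreER; LSL-Shh, a tamoxifen-dependent Cre under the keratin 14 promoter that releases a silenced Shh transgene in basal keratinocytes, and had the same age, strain label and wound stage. E14.5 skin came from unwounded wild type embryos of mixed strain, so that age and wounding cannot be told apart there. Both tissues were bulk samples, in which fewer cells of a type and less RNA per cell cannot be told apart.

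Skin is built from an epithelium and a connective tissue that exchange signals across a basement membrane. Basal keratinocytes sit on that membrane, divide, and carry keratins 5 and 14. Their daughters move outwards, switch to keratins 1 and 10, and then make the cornified envelope, lipids and proteases of the barrier. The dermis below holds fibroblasts in a matrix of collagen, elastic fibres and proteoglycans, together with vessels, nerves, macrophages and mast cells. In a healing wound the epidermis switches on wound keratins such as keratin 6 and 16, while dermal fibroblasts lay down collagen and matricellular proteins.

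The 6 libraries held 1407498 to 7354990 reads assigned to genes, and 11179 to 17618 listed genes had at least 1 read. Between the tissues, library size gave an exact two-sided permutation p of 0.3 and the number of genes detected one of 0.7. Of these libraries, 2 stood apart. The dermal library of Con-9229 was the smallest and had 2849 tested genes at 0 that both other dermal libraries detected, and the microRNA gene Mir5105 took 177144 CPM of it. The epidermal library of Con-9097 had 5329678 reads but the fewest genes detected, with 2553 tested genes at 0 in it alone. Without these 2 libraries the counts of genes called below became 2462 higher in dermis and 2435 higher in epidermis. The dermis of Con-9097 also stood apart and carried hair shaft and inner root sheath RNA, which is described with the follicle genes.

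Levels are given as CPM, the reads of a gene scaled to a common total of 1000000 per library, which do not correct for gene length. Dermal and epidermal libraries stood in separate tables, in which each library was scaled to its own total. Values of a gene are listed in the order of animals Con-9097, Con-9098 and Con-9229. Differences are log2 fold changes of dermis over epidermis on the log2(CPM + 1) scale, tested with limma, and they understate the change of genes with low counts. Gene groups are lists of named genes, described by how many members passed and by their median, beside the shares and the median of all genes tested. The 42 lists name 881 different genes, of which 851 were listed and 774 reached a mean of 1 CPM over the 6 libraries and were tested. A gene that is high in 1 tissue reaches that mean through it alone. How reads of overlapping or near-identical genes were divided was not stated. Of the 15042 genes that reached this mean, 2130 were higher in dermis (14.2% of those tested) and 2302 were higher in epidermis (15.3%) at an adjusted p below 0.05. The 3 libraries of one tissue lay above all 3 of the other for many more genes, 3012 with dermis above (20.02%) and 4163 with epidermis above (27.7%). Every gene called higher in dermis was higher there in 3 of 3 animals, as were 2301 of the 2302 called higher in epidermis. The fold of the mean CPM exceeded 10 for 1134 of the dermal and 918 of the epidermal calls. The median over all genes was -0.23, and under TMM scaling (edgeR's trimmed mean of M-values) it was 0.12 with 2558 genes higher in dermis and 1756 higher in epidermis of 15090. Without both libraries of Con-9098 the counts were 825 higher in dermis and 573 higher in epidermis, and without those of Con-9097 they were 1188 and 1371 in the same order. With all 6 groups of the series in 1 fit they were 3522 and 4607. The share of calls on the dermal side was 48.1% with CPM as deposited and 59.3% under TMM scaling.

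**Figure D1:**
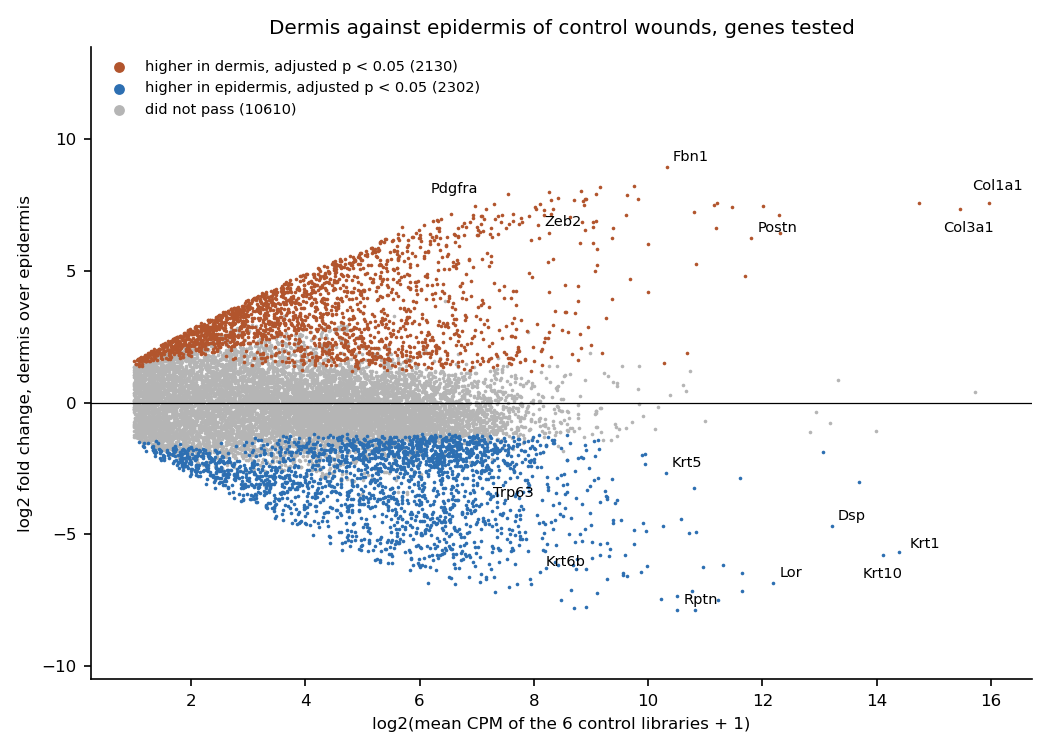
Tissue difference of control wounds for the 15042 genes tested. The horizontal axis is log2(mean CPM of the 6 libraries + 1), the vertical axis is the log2 fold change of dermis over epidermis, and each point is a gene. Of these, 2130 (red) were higher in dermis and 2302 (blue) were higher in epidermis, and collagens and keratins lie at the right on opposite sides of 0.

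The sheets were first checked against their defining markers. All 10 fibroblast markers (Col1a1, Col1a2, Col3a1, Dcn, Lum, Pdgfra, Pdgfrb, Vim, Twist2 and Prrx1) were higher in dermis, where they summed to 25.9, 30.7 and 26.5% of all CPM, against 0.0740, 0.177 and 0.340% in epidermis. All 10 keratinocyte markers (Krt5, Krt14, Krt1, Krt10, Trp63, Perp, Dsp, Cdh1, Epcam and Sfn) were higher in epidermis and summed to 0.293, 0.352 and 0.240% in dermis, against 10.2, 9.34 and 11.7% in epidermis. With 3 libraries against 3, the exact two-sided permutation test gave p = 0.1 for each sum, the smallest it can give. Neither tissue was free of the markers of the other, and epidermal libraries differed from each other in fibroblast RNA, the lowest sum being that of Con-9097 and the highest that of Con-9229. How much residual cells of the other sheet add to the level of a single gene was not tested.

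Fibrillar collagens, the rope-like proteins that give the dermis its strength, and other collagens listed with them were the clearest dermal group. All 17 collagen genes of the list rose in dermis (17 of 17, median log2 difference 7.12, against -0.23 over all genes tested). Col1a1, the main chain of type I collagen (ENSMUSG00000001506, chromosome 11, 94797538 to 94814356, build NCBIM37), had 117719.5, 130347 and 134218 CPM in dermis, against 247, 672 and 1734 CPM in epidermis (7.59, limma adjusted p = 3.76e-04). Col3a1, the type III chain that is plentiful in young scars (chromosome 1, 45368383 to 45406551), had 85827, 108207 and 74923 CPM in dermis, against 269, 629 and 936 CPM in epidermis (7.35, limma adjusted p = 2.96e-04). Both genes had their lowest epidermal level in Con-9097 and their highest in Con-9229, and no epidermal library came near a dermal one. Together, Col1a1, Col1a2, Col3a1, Col5a1 and Col5a2 made up 26.7, 32.0 and 27.5% of all dermal CPM, against 0.0684, 0.176 and 0.344% of epidermal CPM (exact permutation p = 0.1). The largest difference in the list was that of Col14a1, a collagen that coats type I fibrils, with 1168, 1411 and 682 CPM in dermis, against 0.375, 6.80 and 6.56 CPM in epidermis (7.91, limma adjusted p = 3.99e-04). The smallest were those of Col8a2 (3.14) and Col16a1 (3.19). Col6a1, Col6a2 and Col6a3, which form the beaded filaments around cells, differed by 7.22, 7.50 and 7.47.

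The enzymes that fold, cut and crosslink collagen followed, with 20 of 26 higher in dermis, 1 higher in epidermis and 5 that did not pass (median 3.85). Serpinh1, the collagen chaperone of the endoplasmic reticulum, had 1577, 2069 and 2355 CPM in dermis, against 20.1, 35.1 and 34.7 CPM in epidermis (6.04, limma adjusted p = 2.96e-04). Adamts2, which removes the amino end of procollagen, differed by 7.71, and Lox, the founding lysyl oxidase, by 7.06. The 4 lysyl oxidase-like genes Loxl1, Loxl2, Loxl3 and Loxl4 all rose in dermis, by 6.43, 6.85, 4.52 and 4.08. The prolyl 3-hydroxylases, which modify single prolines of collagen, did not move as a family. Lepre1 had 161, 218 and 141 CPM in dermis, against 0, 6.39 and 5.62 CPM in epidermis (5.55, limma adjusted p = 0.00195), whereas Leprel1 was the member higher in epidermis, with 5.72, 7.996 and 7.82 CPM in dermis, against 82.4, 62.4 and 51.5 CPM in epidermis (-3.01, limma adjusted p = 0.00141). P4hb (1.03) and P4ha1 (1.57), subunits of prolyl 4-hydroxylase, missed the threshold and passed it under TMM scaling (adjusted p = 0.0358 and 0.0435).

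Of the elastic fibre, proteoglycan and matricellular genes, 32 of 37 tested were higher in dermis and none was higher in epidermis (median 6.24). Fbn1, the microfibril protein fibrillin-1 (ENSMUSG00000027204, chromosome 2, 125126330 to 125333729), showed the largest dermal difference of any gene averaging 10 CPM or more. It had 3062, 3071 and 1523 CPM in dermis, against 0.751, 6.93 and 7.49 CPM in epidermis, a log2 difference of 8.95 ± 0.70 (SE, limma adjusted p = 2.96e-04). Fbn2 followed at 8.04, Eln, the elastin gene, at 7.31 and Fbln5, which helps elastin assemble, at 7.36. Among small leucine-rich proteoglycans, which space collagen fibrils, Bgn differed by 7.73, Lum by 7.73, Aspn by 7.13, Ogn by 6.92 and Dcn by 6.84. Postn, the matricellular protein periostin of healing tissue, had 4402, 9427 and 7393 CPM in dermis, against 95.3, 109 and 66.5 CPM in epidermis (6.24, limma adjusted p = 2.96e-04). Tnc, a tenascin, differed by 4.70. The members that did not pass were Tnxb, Fbln1, Tgfbi, Has1 and Has3. Of these, Tnxb had 539, 610.3 and 90.2 CPM in dermis, against 102, 69.5 and 15.5 CPM in epidermis, and its difference of 2.66 passed with the animal as a block (adjusted p = 0.0112).

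Besides list members, the 15 largest dermal differences included 7 genes from outside the lists. Igsf10, a secreted immunoglobulin superfamily protein, had 1842, 2234 and 1064 CPM in dermis, against 0.188, 12.8 and 9.37 CPM in epidermis (8.21, limma adjusted p = 7.46e-04). Itih5, of the inter-alpha-trypsin inhibitor family, had 1213, 1718 and 468 CPM in dermis, against 0.563, 11.7 and 0.937 CPM in epidermis (8.20, limma adjusted p = 6.51e-04). The epidermal level of both was lowest in Con-9097. Fndc1 (7.98), Aebp1 (7.88), Pxdn (7.77), the peroxidase that crosslinks collagen IV, Svep1 (7.71) and the secreted serine protease-like gene Prss35 (7.64) completed them. All 7 encode extracellular proteins.

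Transcription factors of dermal fibroblasts rose in 17 of 24 tested, with 7 that did not pass (median 3.54). Twist2, a basic helix-loop-helix factor of the dermal lineage, had 110.5, 119.7 and 88.1 CPM in dermis, against 0, 0.952 and 2.81 CPM in epidermis (5.77, limma adjusted p = 4.17e-04). Prrx1 had 207, 166 and 89.5 CPM in dermis, against 0, 1.496 and 1.41 CPM in epidermis (6.33, limma adjusted p = 3.35e-04), and Zeb2, a zinc finger repressor of epithelial genes, had 679, 564 and 322 CPM in dermis, against 0.188, 6.25 and 2.34 CPM in epidermis (7.35, limma adjusted p = 4.14e-04). En1, which marks a fibroblast lineage of dorsal mouse skin, had 50.1, 43.7 and 39.1 CPM in dermis, against 0, 0.680 and 0 CPM in epidermis (5.24, limma adjusted p = 2.96e-04). Meox2 and Ebf1 had no read in any epidermal library. Against the level that 3 reads over the 3 epidermal libraries would give (0.202 CPM), they were at least 77.5-fold and at least 152-fold higher in dermis. Runx1 did not differ past the threshold (137, 122 and 95.9 CPM in dermis, against 122, 156 and 141 CPM in epidermis, -0.25, limma adjusted p = 0.661), nor did Snai2 (1.03), Foxc1 (-0.13) or Scx (-0.50). Surface and lineage genes of fibroblasts rose in 20 of 22 tested (median 4.08). Pdgfra, the PDGF receptor of dermal fibroblasts, had 349, 411 and 175 CPM in dermis, against 0.563, 1.496 and 0 CPM in epidermis (7.54, limma adjusted p = 2.96e-04), and Lrrc15, a marker of collagen-producing fibroblasts, had 1006, 1219.9 and 1669.6 CPM in dermis, against 24.4, 18.9 and 7.96 CPM in epidermis (6.26, limma adjusted p = 3.20e-04). S100a4 (0.67) and Lrig1 (0.95) did not pass. Contractile and mural genes rose in 12 of 18, among them Acta2, the actin of myofibroblasts and smooth muscle (28.6, 37.3 and 50.4 CPM in dermis, against 0, 3.26 and 1.41 CPM in epidermis, 4.16, limma adjusted p = 0.00207). Notch3, a receptor of mural cells that keratinocytes also express, ran the other way, with 105, 145 and 110.1 CPM in dermis, against 335, 424 and 368 CPM in epidermis (-1.64, limma adjusted p = 0.0155), a call lost under TMM scaling (adjusted p = 0.0555).

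**Figure D2:**
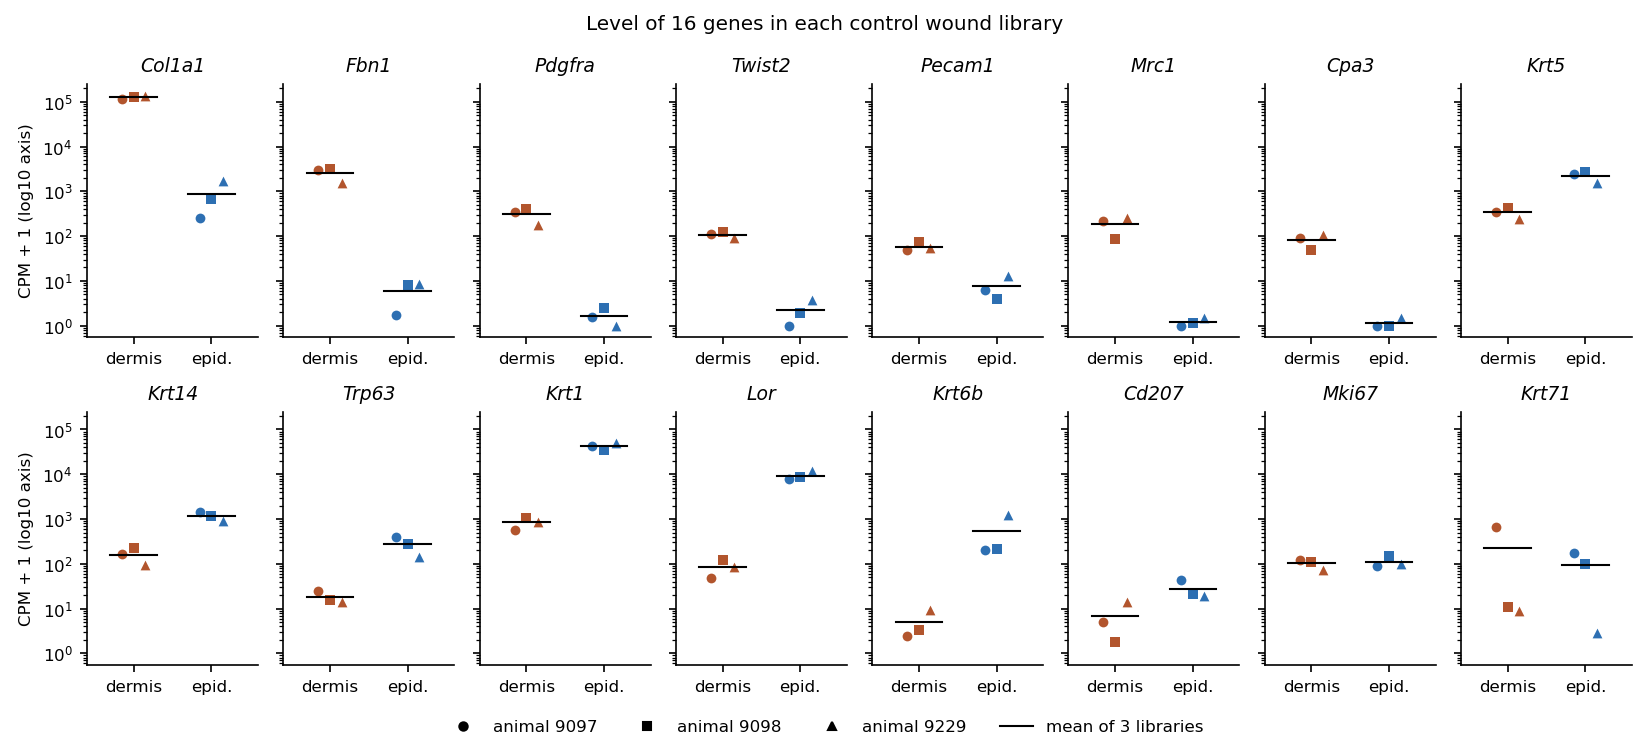
Level of 16 genes in each of the 6 control libraries. Each point is 1 library (CPM + 1, log10 axis), shapes mark the 3 animals and bars the mean. Dermal points of Col1a1 to Cpa3 lie above all epidermal points, epidermal points of Krt5 to Cd207 lie above all dermal points, Mki67 overlaps, and Krt71 is high in the dermis of 1 animal.

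Genes of the basal layer and of the layers above it were higher in epidermis. Of 12 basal keratinocyte genes, 11 were higher in epidermis and 1 did not pass, with a median log2 difference of -3.15. Of 25 suprabasal and cornified envelope genes tested, 22 were higher in epidermis and 3 did not pass, with a median of -6.06. Krt5, the basal type II keratin (chromosome 15, 101537501 to 101543322), had 342, 426 and 245 CPM in dermis, against 2458, 2629 and 1495 CPM in epidermis (-2.69, limma adjusted p = 0.00364), and its partner Krt14 had 161, 227 and 92.4 CPM in dermis, against 1416, 1184 and 893 CPM in epidermis (-2.92, limma adjusted p = 0.00354). Krt1, the suprabasal type II keratin (chromosome 15, 101675859 to 101681217), had 581, 1074 and 858 CPM in dermis, against 43321, 34662 and 48968 CPM in epidermis (-5.69, limma adjusted p = 2.96e-04), and its partner Krt10 had 465, 840.1 and 606 CPM in dermis, against 31301, 33945 and 38965 CPM in epidermis (-5.80, limma adjusted p = 2.96e-04). The dermal libraries of the 3 animals thus held 12.995%, 17.1% and 14.1% of the epidermal CPM of Krt5 and Krt14 together, but only 1.40%, 2.79% and 1.67% of that of Krt1 and Krt10. In each animal the dermal share of the basal pair was several times that of the suprabasal pair. With 3 animals the difference between these shares was not tested. Trp63, the p63 gene that maintains the basal layer, had 23.2, 14.9 and 12.8 CPM in dermis, against 400.2, 271 and 139 CPM in epidermis (-3.83, limma adjusted p = 0.00154). Dst, the plakin of hemidesmosomes that muscle and nerve also make, was the basal gene that did not pass, with 1104, 1258 and 407 CPM in dermis, against 1073, 1100.2 and 533 CPM in epidermis (-0.05, limma adjusted p = 0.957).

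Wound keratins were higher in the epidermis of every control wound than in any dermis. Krt6b had 1.43, 2.399 and 8.53 CPM in dermis, against 198, 217 and 1218 CPM in epidermis (-6.45, limma adjusted p = 0.00133), and Krt16 had 2.15, 11.5 and 5.68 CPM in dermis, against 132, 239 and 1029 CPM in epidermis (-5.65, limma adjusted p = 0.00252). Krt6a had 22.5, 24.3 and 18.5 CPM in dermis, against 376, 338 and 1094 CPM in epidermis (-4.52, limma adjusted p = 9.25e-04), though reads of Krt6a and Krt6b may be shared between these near-identical genes. All 3 were highest in the epidermis of Con-9229. Krt15, a keratin of basal and follicle stem cells, had 90.1, 59.7 and 19.9 CPM in dermis, against 626, 592 and 102 CPM in epidermis (-2.79, limma adjusted p = 0.0452), a call lost under TMM scaling (adjusted p = 0.0576) and without the 2 libraries with the fewest genes detected (adjusted p = 0.178). Krt2, a keratin of ear and tail skin, had 0, 0.267 and 0 CPM in dermis, against 6.94, 2.45 and 2.81 CPM in epidermis (-2.12, limma adjusted p = 0.0121). In the type I keratin cluster (chromosome 11, 99094075 to 100122343, NCBIM37), 8 of 41 tested genes were higher in epidermis and none in dermis. This share of 19.5% lay near the 15.3% of all genes tested, and the cluster median of -0.21 near their -0.23. In the type II cluster (chromosome 15, 101177875 to 101862457), 10 of 21 were higher in epidermis (47.6%) and none in dermis.

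The cornified envelope genes gave the largest epidermal differences. Rptn, the envelope protein repetin (ENSMUSG00000041984, chromosome 3, 93197621 to 93203364), had 3.93, 6.66 and 25.6 CPM in dermis, against 1291, 1801 and 5629.9 CPM in epidermis, a log2 difference of -7.88 ± 0.80 (SE, limma adjusted p = 4.98e-04). Hrnr, which encodes hornerin, had 5.36, 25.9 and 19.2 CPM in dermis, against 2732, 3993 and 4031 CPM in epidermis (-7.87, limma adjusted p = 2.96e-04). Lor, which encodes loricrin, the main envelope protein, had 46.1, 122 and 82.4 CPM in dermis, against 7636, 8575 and 11604 CPM in epidermis (-6.86, limma adjusted p = 2.96e-04). Flg, the filaggrin gene, is listed under several gene IDs, and the one with the largest difference (ENSMUSG00000081977) had 10.01, 121 and 12.8 CPM in dermis, against 4058, 5521 and 4688 CPM in epidermis (-7.48, limma adjusted p = 9.17e-04). Rptn was highest in Con-9229 in both tissues. Sprr1b had 0.715, 1.07 and 0 CPM in dermis, against 119, 152 and 312 CPM in epidermis (-6.88, limma adjusted p = 2.96e-04), while its neighbour Sprr1a had 32.5, 1.33 and 0 CPM in dermis, against 79.4, 39.8 and 32.3 CPM in epidermis and did not pass (adjusted p = 0.0673), although it passed with the animal as a block (adjusted p = 0.0306). These genes sit in the epidermal differentiation complex (chromosome 3, 90314956 to 93368565, NCBIM37), where 34 of 54 tested genes were higher in epidermis, a share of 62.96% beside the 15.3% of all genes tested. Only 2 genes of the complex were higher in dermis, S100a13 (65.1, 40.2 and 43.3 CPM in dermis, against 21.4, 4.76 and 4.68 CPM in epidermis, 2.46, limma adjusted p = 0.0219) and S100a6, a calcium-binding protein of fibroblasts (451, 241 and 306 CPM in dermis, against 47.3, 85.2 and 41.7 CPM in epidermis, 2.52, limma adjusted p = 0.00627). Late cornified envelope genes are near-identical copies of each other, and how their reads were divided is uncertain.

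The sequence just before their start sites was examined in promoters credited to RefSeq (build GRCm38.p6). The motif TATAAA, read on both strands of the 60 bases before the start, lay in 10 of 20 suprabasal and cornified genes with a promoter in that set (50%), against 4.21% of all 27025 promoters and 2.56% of the 9901 tested genes with one. It lay in none of 4 basal keratinocyte genes, none of 13 lipid barrier genes, none of 13 fibrillar and associated collagen genes and none of 21 elastic fibre, proteoglycan and matricellular genes. Of the other epidermal and dermal lists, 3 had a match, with 1 of 12 desquamation genes, 1 of 15 fibroblast transcription factors and 2 of 13 fibroblast lineage and surface genes. Among genes taken by their tissue call alone the shares were 3.59% of 1506 genes higher in epidermis and 3.22% of 1461 genes higher in dermis. The AP-1 letters TGANTCA, which read alike on both strands and share no base with TATAAA in the windows printed here, lay within 250 bases before the start in 9 of the same 20 genes (45%), against 6.87% of all promoters, 4.80% of those of tested genes and 1 of 13 collagen genes. The GC box letters GGGCGG (both strands, 250 bases) ran the other way in suprabasal genes. They lay in 1 of 20 of them (5%), against 32.9% of all promoters and 57.5% of those of tested genes. Of collagen genes 9 of 13 held them (69.2%), and over the dermal lists the share ran from 30.8% to 80%. The other epidermal lists ran from 25% (1 of 4 basal genes) to 100% (2 of 2 desmosome genes), with 70% of epithelial transcription factors. By tissue call alone the shares were alike, 57.97% of 1506 genes higher in epidermis and 55.7% of 1461 genes higher in dermis. A match is a run of letters and not a measured binding site. The 60 bases before the start are shown for genes with the motif (Lor, Ivl, Sprr1b, Flg and Krt10, whose capitals mark TATAAA and, in Lor, also TGANTCA) and for genes without it from the basal layer and the dermis (Krt5, Col3a1, Col1a2 and Fbn1, all in lower case), each 5′ to 3′ on the strand of the gene.
Lor (chr3:92083143-92083202, minus strand): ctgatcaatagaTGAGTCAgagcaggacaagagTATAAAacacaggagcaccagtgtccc
Ivl (chr3:92573736-92573795, minus strand): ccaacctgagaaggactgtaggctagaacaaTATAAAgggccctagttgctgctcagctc
Sprr1b (chr3:92438780-92438839, minus strand): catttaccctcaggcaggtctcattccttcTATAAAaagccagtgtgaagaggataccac
Flg (chr3:93273486-93273545, plus strand): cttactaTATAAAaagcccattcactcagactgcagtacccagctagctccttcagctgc
Krt10 (chr11:99389365-99389424, minus strand): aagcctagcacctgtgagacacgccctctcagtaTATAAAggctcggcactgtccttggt
Krt5 (chr15:101712906-101712965, minus strand): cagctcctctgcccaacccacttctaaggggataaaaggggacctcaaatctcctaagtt
Col3a1 (chr1:45311478-45311537, plus strand): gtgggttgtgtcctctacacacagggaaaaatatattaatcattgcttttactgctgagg
Col1a2 (chr6:4505558-4505617, plus strand): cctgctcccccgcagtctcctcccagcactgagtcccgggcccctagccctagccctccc
Fbn1 (chr2:125506439-125506498, minus strand): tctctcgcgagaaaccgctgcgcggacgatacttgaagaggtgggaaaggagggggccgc
In Lor, Ivl, Sprr1b and Krt10 the motif began 27, 29, 30 and 26 bases before the start, and in Flg it began 53 bases before it.

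Barrier lipids, proteases and junctions followed the same side. Of 18 lipid barrier genes, 16 were higher in epidermis and 2 did not pass (median -4.78). Aloxe3, a lipoxygenase of the barrier, had 2.15, 4.80 and 0.710 CPM in dermis, against 355, 274 and 310.1 CPM in epidermis (-6.63, limma adjusted p = 2.97e-04), and Abca12, which loads lipids into lamellar granules, differed by -5.82. Ugcg (-0.99, limma adjusted p = 0.115) and Fa2h (0.87, limma adjusted p = 0.429) did not pass. Desquamation genes, the proteases and inhibitors that let dead cells shed, were higher in epidermis in 15 of 16 tested (median -5.35). Spink5, an inhibitor of kallikreins, had 14.3, 34.6 and 3.55 CPM in dermis, against 2149.8, 2291 and 2684 CPM in epidermis (-7.45, limma adjusted p = 4.43e-04), and its targets Klk5 and Klk7 differed by -6.34 and -6.70. Ctsl, a cathepsin of lysosomes in many cells, did not pass, with 224, 244 and 274 CPM in dermis, against 202, 281 and 259 CPM in epidermis and a 95% interval of -0.88 to 0.89 for its log2 difference. Desmosome genes were higher in epidermis in 10 of 13 (median -4.58), with Dsp, the desmoplakin gene, at 1079.6, 727 and 439.8 CPM in dermis, against 17883, 14964 and 21860.5 CPM in epidermis (-4.68, limma adjusted p = 4.67e-04). The exceptions were the cadherins Dsg2 (-1.61) and Dsc2 (-0.76) and the plakophilin Pkp2 (1.23), which did not pass. Adherens and tight junction genes were higher in epidermis in 16 of 20, among them Cdh1, the E-cadherin gene (66.2, 46.9 and 42.6 CPM in dermis, against 963, 959 and 934 CPM in epidermis, -4.20, limma adjusted p = 3.76e-04).

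Of 23 epithelial transcription factors tested, 20 were higher in epidermis and 3 did not pass (median -3.75). Barx2 had 3.93, 10.9 and 0 CPM in dermis, against 223, 156 and 237 CPM in epidermis (-5.71, limma adjusted p = 0.00253), and Grhl3, which drives barrier formation, had 1.79, 3.998 and 9.24 CPM in dermis, against 185, 207 and 334 CPM in epidermis (-5.49, limma adjusted p = 5.42e-04). Zfp750, a p63 target needed for terminal differentiation, differed by -5.01, and Klf4, a late differentiation factor, by -3.39. The splicing factors Esrp1 (-4.96) and Esrp2 (-5.61), which set epithelial isoforms, fell in dermis, and the cadherins Cdh2 (3.97) and Cdh11 (6.61) of mesenchyme rose there. In the list of splicing and adhesion genes that holds these 4, 3 of 13 tested were higher in dermis and 5 were higher in epidermis. Genes with the largest epidermal differences outside the lists included Serpina12, which encodes the serpin vaspin, with 4.29, 5.33 and 0.710 CPM in dermis, against 768, 645 and 699 CPM in epidermis (-7.51, limma adjusted p = 2.96e-04). Ces2f (-7.20), a carboxylesterase, Serpinb12 (-6.90) and Gm94 (-7.01) were also among the 15 largest. Il1f5, the interleukin-36 receptor antagonist, had 5.72, 17.9 and 2.13 CPM in dermis, against 1095, 1010.3 and 1169 CPM in epidermis (-7.21, limma adjusted p = 3.76e-04).

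The basement membrane divided by chain. Lama3 and Lamb3, laminin chains that anchor basal cells, were higher in epidermis: Lama3 had 31.8, 40.0 and 3.55 CPM in dermis, against 301, 421 and 178 CPM in epidermis (-3.96, limma adjusted p = 0.0122) and Lamb3 differed by -3.30. The chains of laminins in vessels, muscle and nerve were higher in dermis, with Lama2 at 410.2, 476 and 226 CPM in dermis, against 0.188, 1.63 and 0 CPM in epidermis (7.92, limma adjusted p = 2.96e-04) and Lama4 at 7.10, Lamb1 at 4.76, Lamc1 at 2.68 and Lamb2 at 1.76. Lama5, the laminin 511 chain under the epidermis, did not pass (92.3, 105 and 21.3 CPM in dermis, against 158, 176 and 101 CPM in epidermis, -1.23, limma adjusted p = 0.202). Collagen IV split in the same way, with Col4a1 (568, 1063 and 1027 CPM in dermis, against 9.19, 15.6 and 11.2 CPM in epidermis, 6.06, limma adjusted p = 2.96e-04) and Col4a2 (5.33) higher in dermis and Col4a6 (7.15, 7.73 and 2.13 CPM in dermis, against 63.2, 66.1 and 12.2 CPM in epidermis, -2.66, limma adjusted p = 0.0339) higher in epidermis. The Col4a6 call was lost without the 2 libraries with the fewest genes detected (adjusted p = 0.135). Nid1 and Nid2, the nidogens that link laminin to collagen IV, rose in dermis by 7.67 and 6.89, and Hspg2, the perlecan gene, by 5.25. Col17a1, the hemidesmosome collagen of basal cells, was higher in epidermis (84.7, 104 and 74.6 CPM in dermis, against 1443, 1589 and 802 CPM in epidermis, -3.80, limma adjusted p = 7.89e-04), as were the Fraser complex genes Fras1 (-4.24) and Frem2 (-4.05), whereas their partner Frem1 was higher in dermis (26.8, 28.8 and 11.4 CPM in dermis, against 0, 0.680 and 0 CPM in epidermis, 4.19, limma adjusted p = 9.25e-04). Col7a1, which encodes the anchoring fibril collagen, had 1526, 2784 and 2807 CPM in dermis, against 1176, 1125 and 739 CPM in epidermis, a difference of 1.202 that missed the threshold (adjusted p = 0.0822) and passed under TMM scaling (adjusted p = 0.0347).

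Integrins, the receptors for these proteins, were higher in dermis in 8 of 20 and higher in epidermis in 5. The epidermal ones were Itga6 (55.4, 50.1 and 54.0 CPM in dermis, against 259, 358 and 163 CPM in epidermis, -2.20, limma adjusted p = 0.00804) and Itgb4 (-1.98), the laminin receptor of hemidesmosomes, with Itga3 (-2.44), Itga2 (-2.82) and Itgb6 (-4.19). Itga11, a receptor for fibrillar collagen on fibroblasts, led the dermal ones with 242, 371 and 278 CPM in dermis, against 3.38, 4.08 and 0.937 CPM in epidermis (6.39, limma adjusted p = 2.96e-04). Itgb1, the shared beta chain, was also higher in dermis (593, 683 and 440.5 CPM in dermis, against 71.9, 80.5 and 65.1 CPM in epidermis, 2.95, limma adjusted p = 0.00141). Matrix proteases and their inhibitors rose in dermis in 21 of 29 tested. Mmp11 (197, 289 and 278 CPM in dermis, against 0, 4.89 and 2.34 CPM in epidermis, 6.55, limma adjusted p = 5.26e-04), Mmp14 (5.001) and Mmp2 (5.21) were among them, and Timp2 (5.46) rose beside them. Mmp28, an epithelial metalloproteinase, was the only protease of the list higher in epidermis (3.58, 7.73 and 6.39 CPM in dermis, against 74.1, 40.1 and 20.1 CPM in epidermis, -2.60, limma adjusted p = 0.0122).

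**Figure D3:**
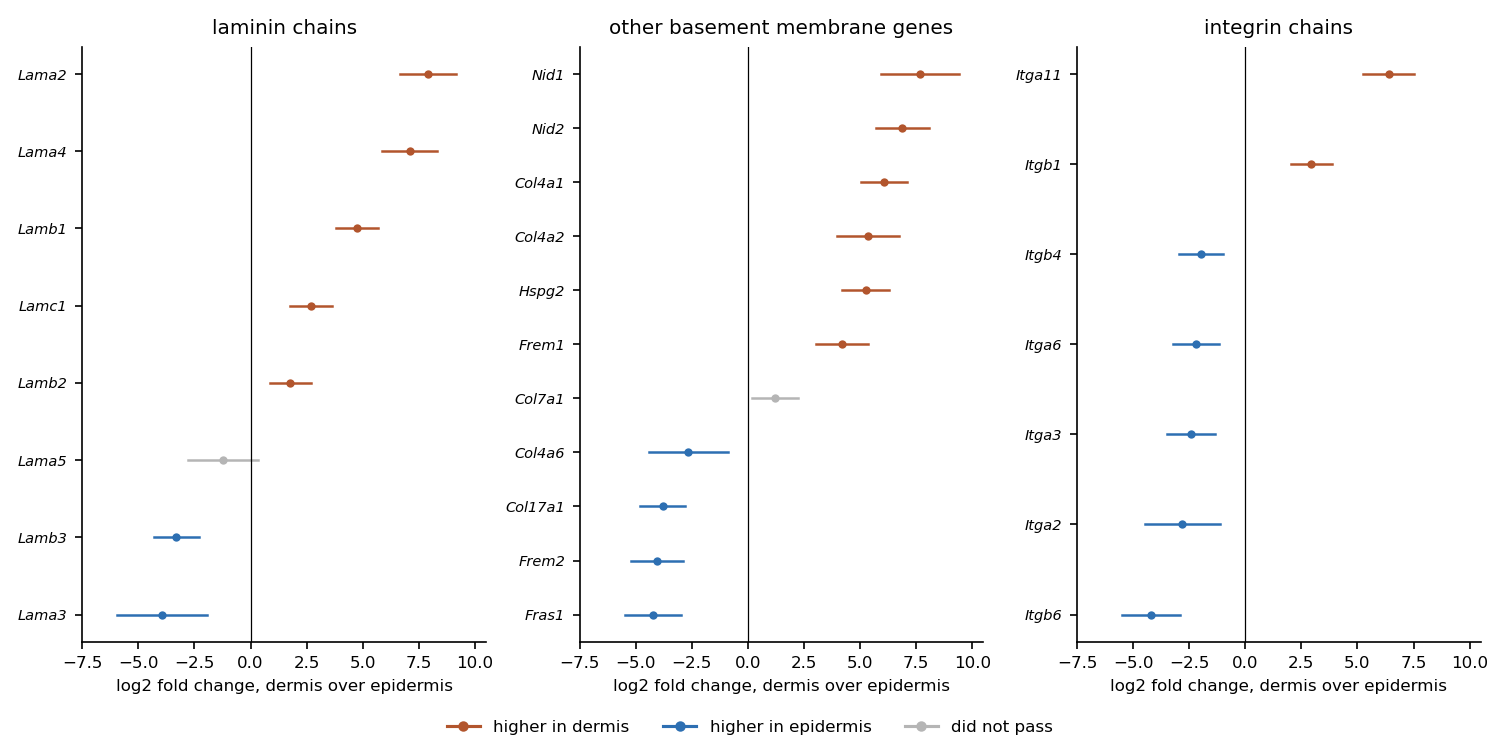
Log2 fold change of dermis over epidermis in control wounds for the laminin chains, other basement membrane genes and integrin chains named in the text. Points are limma estimates, bars 95% intervals, and colours give the call at an adjusted p below 0.05. Lama3, Lamb3, Col17a1, Fras1, Frem2 and Itga6 with Itgb4 lie on the epidermal side, and Lama2, Nid1, Col4a1 and Itga11 lie on the dermal side.

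Signalling genes were divided between the sheets, often within a pathway. In the EGF family, 6 of 16 were higher in epidermis and 1 was higher in dermis. Ereg, a ligand of keratinocytes, had 1.43, 0.533 and 0.710 CPM in dermis, against 52.7, 128 and 90.9 CPM in epidermis (-5.54, limma adjusted p = 3.35e-04), and the receptors Erbb3 (50.8, 25.9 and 22.02 CPM in dermis, against 388, 416 and 315 CPM in epidermis, -3.55, limma adjusted p = 0.00121) and Erbb2 (-2.41) lay on the same side. Nrg1, a ligand that binds Erbb3, was the dermal exception (8.94, 12.3 and 14.2 CPM in dermis, against 0, 1.496 and 0.937 CPM in epidermis, 2.90, limma adjusted p = 0.0038). Of the FGF receptors, Fgfr1 (5.25) and Fgfr4 (5.52) were dermal and Fgfr3 epidermal (20.4, 14.4 and 5.68 CPM in dermis, against 240.4, 234 and 159.7 CPM in epidermis, -4.01, limma adjusted p = 0.00142), while Fgfr2, the receptor of keratinocytes for dermal FGF, did not pass (-1.51, adjusted p = 0.152). Over the 11 FGF genes tested, 3 were higher in each tissue. In the PDGF, VEGF, KIT and colony-stimulating list, 15 of 30 were higher in dermis and 2 in epidermis. The PDGF receptors were dermal, whereas the ligand Pdgfb had 26.8, 37.0 and 38.4 CPM in dermis, against 69.6, 85.1 and 96.0 CPM in epidermis (-1.27, limma adjusted p = 0.0442), a call lost with the animal as a block (adjusted p = 0.0743). Il34, a keratinocyte ligand for the receptor of Langerhans cells and macrophages, had 15.02, 15.2 and 4.97 CPM in dermis, against 109, 71.2 and 29.0 CPM in epidermis (-2.42, limma adjusted p = 0.0266), a call lost without the 2 libraries with the fewest genes detected (adjusted p = 0.0714).

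Wnt ligands were split. Wnt7b had 3.93, 2.399 and 3.55 CPM in dermis, against 192, 128 and 138 CPM in epidermis (-5.16, limma adjusted p = 2.96e-04), Wnt3 had 10.01, 8.80 and 0 CPM in dermis, against 163, 122 and 53.9 CPM in epidermis (-4.44, limma adjusted p = 0.0121) and Wnt4 differed by -2.34. These 3 ligands were higher in epidermis, as were Wnt3a (-2.70) and Wnt2b (-1.93), the last with its call lost under TMM scaling (adjusted p = 0.0846). Wnt5a, a ligand that often acts without beta-catenin, had 106, 126 and 77.4 CPM in dermis, against 0, 24.2 and 12.6 CPM in epidermis (3.87, limma adjusted p = 0.0361) and Wnt9a differed by 4.196. With Wnt11, whose call was lost with the animal as a block (adjusted p = 0.0546), these were the 3 ligands higher in dermis, and 6 of 14 did not pass. Of 34 Wnt receptors, inhibitors and targets, 13 were higher in dermis and 4 in epidermis. Secreted inhibitors led the dermal side, with Sfrp2 at 67.6, 199 and 176 CPM in dermis, against 0, 0.408 and 0 CPM in epidermis (6.91, limma adjusted p = 2.96e-04), Dkk3 at 6.33 and Dkk2 at 4.80. The pathway targets Axin2 (129, 136 and 59.7 CPM in dermis, against 104, 86.9 and 26.2 CPM in epidermis, 0.70, limma adjusted p = 0.44) and Lef1 (1.35) did not pass, whereas the feedback inhibitors Nkd1 (5.72) and Nkd2 (4.16) rose in dermis. Porcn, which acylates Wnt proteins for export, was higher in epidermis (5.01, 6.40 and 9.95 CPM in dermis, against 71.5, 79.5 and 54.3 CPM in epidermis, -3.13, limma adjusted p = 0.00154).

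In the BMP and TGF-beta list, 19 of 33 were higher in dermis and 3 in epidermis. All 3 TGF-beta isoforms rose in dermis: Tgfb1 (103, 76.8 and 108 CPM in dermis, against 20.1, 17.5 and 26.2 CPM in epidermis, 2.12, limma adjusted p = 0.0063), Tgfb2 (2.24) and Tgfb3 (3.59). The BMP antagonist Grem1 (117, 129 and 101 CPM in dermis, against 0, 0.408 and 1.41 CPM in epidermis, 6.27, limma adjusted p = 2.96e-04) rose beside them, and Fstl1, a follistatin-like secreted protein, by 7.11. Bmp7 was the ligand higher in epidermis (6.44, 2.399 and 0 CPM in dermis, against 75.8, 46.9 and 23.4 CPM in epidermis, -3.93, limma adjusted p = 0.00906). Of the Hedgehog genes, the ligands Shh and Ihh did not reach a mean of 1 CPM and were not tested, and the response genes Ptch1 (35.0, 42.9 and 18.5 CPM in dermis, against 61.4, 32.1 and 22.01 CPM in epidermis, -0.21, limma adjusted p = 0.801) and Gli1 (17.9, 14.4 and 5.68 CPM in dermis, against 36.0, 7.61 and 2.34 CPM in epidermis, 0.29, limma adjusted p = 0.834) did not differ past the threshold. Of the 14 tested, 5 rose in dermis and none in epidermis, among them the co-receptors Cdon (304, 324 and 88.8 CPM in dermis, against 17.1, 28.1 and 7.96 CPM in epidermis, 3.63, limma adjusted p = 0.00639) and Gas1 (1.69) and the factor Gli3 (3.49). In the ectodysplasin, Notch and ephrin list, 7 of 33 were higher in dermis and 10 in epidermis. Notch2 (243, 225 and 181 CPM in dermis, against 858, 679 and 707 CPM in epidermis, -1.79, limma adjusted p = 0.0108) and its ligand Jag2 (-2.35) were epidermal, and Dll4, the Notch ligand of vessels, was dermal (7.51, 21.6 and 11.4 CPM in dermis, against 0, 0.680 and 0 CPM in epidermis, 3.49, limma adjusted p = 0.0021).

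Cytokines divided evenly, with 9 of 29 higher in each tissue. Most interleukin-1 family genes were epidermal: Il18 had 0.715, 1.599 and 0 CPM in dermis, against 99.3, 156 and 122 CPM in epidermis (-6.24, limma adjusted p = 2.96e-04), Il1f6, an interleukin-36 agonist, had 0, 0.267 and 0 CPM in dermis, against 43.2, 74.0 and 114 CPM in epidermis (-6.07, limma adjusted p = 2.96e-04), and Il1f8 (-5.22), Il1f9 (-5.61) and Il1a (-3.02) lay on the same side. Il1b ran the other way, with 60.4, 19.2 and 14.9 CPM in dermis, against 0, 3.81 and 3.75 CPM in epidermis (3.25, limma adjusted p = 0.019), a call lost with the animal as a block (adjusted p = 0.052). Il33, an alarmin, was higher in dermis in each animal but did not pass (55.4, 22.1 and 36.9 CPM in dermis, against 0, 17.8 and 7.03 CPM in epidermis, 2.79, limma adjusted p = 0.081). Chemokines with a dermal excess included 3 without epidermal reads. Ccl2, Ccl7 and Ccl11, which attract monocytes and eosinophils, had no read in any epidermal library and were at least 56.8-fold, 91.4-fold and 55.2-fold higher in dermis, against the level of 3 reads over the 3 epidermal libraries. Cxcl12, a stromal chemokine, had 42.9, 47.2 and 51.9 CPM in dermis, against 0, 0.544 and 0 CPM in epidermis (5.38, limma adjusted p = 2.96e-04).

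Dermal libraries also held RNA of the other cell types of connective tissue. Endothelial genes rose in dermis in 20 of 23 tested, with Cdh5 at 31.5, 65.0 and 44.0 CPM in dermis, against 0, 0.544 and 1.41 CPM in epidermis (4.89, limma adjusted p = 5.08e-04) and Pecam1 at 46.8, 71.4 and 54.0 CPM in dermis, against 5.25, 2.86 and 11.7 CPM in epidermis (3.09, limma adjusted p = 0.00443). Tie1 had no read in any epidermal library and was at least 140.5-fold higher in dermis. Macrophage and dendritic genes rose in 20 of 27, with Mrc1, the mannose receptor, at 213, 84.0 and 259 CPM in dermis, against 0, 0.136 and 0.468 CPM in epidermis (7.14, limma adjusted p = 2.96e-04) and Lyz2 at 6.64. Macrophage genes shared with epidermal antigen-presenting cells did not all pass. Cd74, the invariant chain of MHC class II, had 1257, 522 and 1520.4 CPM in dermis, against 368, 279 and 545 CPM in epidermis and did not pass with limma (adjusted p = 0.0958) but passed with edgeR on the recovered reads (adjusted p = 0.0213), and neither did H2-Ab1 (1.39), H2-Eb1 (1.39) or Csf1r (143, 93.5 and 249 CPM in dermis, against 79.6, 74.4 and 54.3 CPM in epidermis, adjusted p = 0.125). Mast cell genes rose in 8 of 9, with Cpa3 at 90.8, 46.9 and 104 CPM in dermis, against 0, 0 and 0.468 CPM in epidermis (6.09, limma adjusted p = 2.96e-04). The dermal values of Mrc1 and Cpa3 were lowest in Con-9098, and the epidermis of all 3 animals lay below them. For Cd74 the tissues overlapped, with 522 CPM in the dermis of Con-9098 and 545 CPM in the epidermis of Con-9229. Cd207, which marks Langerhans cells of the epidermis, had 3.93, 0.800 and 12.8 CPM in dermis, against 42.2, 19.7 and 18.3 CPM in epidermis, with all epidermal libraries above all dermal ones, but just missed the threshold (-2.38, limma adjusted p = 0.0529). It passed without the 2 libraries with the fewest genes detected (adjusted p = 0.0161). The Langerhans and T cell list had 2 of 16 higher in each tissue (median -0.08), beside 14.2% of all genes tested higher in dermis and 15.3% higher in epidermis.

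Schwann and nerve genes rose in dermis in 7 of 15, with Pmp22 at 124, 99.7 and 78.2 CPM in dermis, against 0, 2.72 and 0.937 CPM in epidermis (5.69, limma adjusted p = 4.42e-04), and 1 of them was higher in epidermis, the receptor Erbb3 given above. Mbp, a myelin gene, did not differ past the threshold (51.9, 21.9 and 54.7 CPM in dermis, against 66.6, 65.7 and 40.7 CPM in epidermis, -0.49, limma adjusted p = 0.489). Melanocyte genes were few: 3 of 7 tested rose in dermis, Mitf, Kit and Sox10, which mast cells and Schwann cells also express, while Dct (-0.15), Tyr (-1.38) and Pmel (-1.35) did not pass. The defining fat cell genes Adipoq and Plin1 summed to 1.07, 0 and 0 CPM in dermis and had no read in epidermis, and 3 of 8 adipocyte genes tested rose in dermis and 1 in epidermis. Skeletal muscle genes rose in dermis in 3 of 9 and in epidermis in 1, and the 5 muscle markers summed to 7.87, 6.93 and 28.4 CPM in dermis, against 0, 4.21 and 0.468 CPM in epidermis. Of 3 erythroid genes tested, 2 rose in dermis, with Hbb-b1, the adult beta globin, at 20.02, 13.6 and 37.7 CPM in dermis, against 0, 0.136 and 0 CPM in epidermis (4.45, limma adjusted p = 5.87e-04).

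Hair follicle RNA was uneven between animals, and its tissue difference had no shared direction among them. The 9 hair shaft and inner root sheath markers (Krt31, Krt33a, Krt33b, Krt34, Krt35, Krt71, Krt25, Krt27 and Tchh) summed to 5572, 68.0 and 19.2 CPM in dermis, against 903, 577 and 19.7 CPM in epidermis. The dermis of Con-9097 stood far above the other 5 libraries, the epidermis of animals Con-9097 and Con-9098 came next, and both tissues of Con-9229 were lowest. Krt71, an inner root sheath keratin, had 660.5, 9.86 and 7.82 CPM in dermis, against 174, 97.9 and 1.87 CPM in epidermis, and Tchh, the trichohyalin gene, had 4041, 46.1 and 3.55 CPM in dermis, against 587, 374 and 17.8 CPM in epidermis. Of 24 genes of this list, none was higher in dermis and 1 was higher in epidermis, Krt79 (24.3, 59.97 and 31.3 CPM in dermis, against 171, 236 and 85.2 CPM in epidermis, -2.05, limma adjusted p = 0.0283), whose call was lost under TMM scaling (adjusted p = 0.0621). In the list of follicle stem cell, papilla and sebaceous genes, 8 of 23 were higher in dermis and 5 in epidermis. Crabp1, which marks papilla and upper dermal fibroblasts, had 144, 193 and 276 CPM in dermis, against 12.01, 4.21 and 7.96 CPM in epidermis (4.55, limma adjusted p = 6.63e-04). Sox9 (7.51, 8.53 and 5.68 CPM in dermis, against 43.7, 49.2 and 21.5 CPM in epidermis, -2.18, limma adjusted p = 0.0106) was epidermal, and Lgr5, known from follicle stem cells, was dermal in these wounds (60.1, 50.4 and 106 CPM in dermis, against 8.82, 1.496 and 0.468 CPM in epidermis, 4.40, limma adjusted p = 0.00405).

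Among 29 genes of DNA replication and mitosis tested, 1 passed, Cdk1, the mitotic kinase, with 13.2, 13.1 and 32.0 CPM in dermis, against 0, 6.39 and 3.75 CPM in epidermis (2.52, limma adjusted p = 0.0489), and the median of the list was 0.12. Mki67, a marker of cycling cells, had 122, 111 and 70.3 CPM in dermis, against 87.2, 145 and 96.0 CPM in epidermis, and the 95% interval of its log2 difference was -1.13 to 0.89. The Cdk1 call was lost with edgeR (adjusted p = 0.101) and without the 2 libraries with the fewest genes detected (adjusted p = 0.0592). Immediate early and stress genes had 0 of 23 higher in dermis and 2 higher in epidermis by limma. Egr3 (33.3, 22.7 and 13.499 CPM in dermis, against 111, 98.3 and 129 CPM in epidermis, -2.32, limma adjusted p = 0.0078) and the small heat shock gene Hspb1 (0, 0.800 and 0.710 CPM in dermis, against 27.2, 17.4 and 13.6 CPM in epidermis, -3.75, limma adjusted p = 9.88e-04) were these 2, and edgeR on the recovered reads called 6 of the list higher in dermis. Ribosomal protein genes had 3 of 22 higher in epidermis, beside 15.3% of all genes tested, and none in dermis. With edgeR on the recovered reads none of the 22 passed. Genes encoded in mitochondria were not analysed here.

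Hox genes, which record position along the body, lay on both sides. Of 27 tested, 5 were higher in dermis and 4 in epidermis, beside 14.2% and 15.3% of all genes tested. Their median was -0.50, beside -0.23 over all genes. The Hoxd cluster (chromosome 2, 74529147 to 74603200, NCBIM37) had 4 of 7 tested genes higher in dermis, 1 of them the non-Hox transcript 6720416L17Rik, and none higher in epidermis. The Hoxa cluster (chromosome 6, 52105366 to 52190853) had 1 of 10 higher in dermis and 5 higher in epidermis, 2 of these being the non-Hox transcripts 2700086A05Rik and 5730596B20Rik. The 27 tested Hox genes were grouped by paralog number after their values had been seen, and the grouping is a description only. Of 16 genes of paralog groups 2 to 7, 4 were higher in epidermis and none in dermis (median -1.06). Of 11 genes of groups 8 to 13, 5 were higher in dermis and none in epidermis (median 2.05). Hoxd8 had 46.1, 47.7 and 41.2 CPM in dermis, against 0, 2.99 and 1.87 CPM in epidermis (4.35, limma adjusted p = 0.00138), Hoxc10 had 19.7, 18.7 and 13.499 CPM in dermis, against 0, 0.272 and 0 CPM in epidermis (4.06, limma adjusted p = 4.11e-04), and Hoxd9 (3.38), Hoxd10 (2.05) and Hoxa10 (3.14) also rose in dermis. On the epidermal side, Hoxa6 had 1.07, 2.93 and 0 CPM in dermis, against 25.9, 20.3 and 15.9 CPM in epidermis (-3.40, limma adjusted p = 0.004) and Hoxa3 had 0.715, 1.07 and 0 CPM in dermis, against 18.4, 8.02 and 6.56 CPM in epidermis (-2.85, limma adjusted p = 0.00611), with Hoxb6 at -2.36 and Hoxa5 at -1.80. The Hoxa5 call was lost with the animal as a block (adjusted p = 0.0816). With edgeR on the recovered reads, Hoxa3 (adjusted p = 0.0531), Hoxb6 (0.172) and Hoxa5 (0.297) did not pass, nor did the non-Hox transcripts 6720416L17Rik and 2700086A05Rik. Most of these genes had fewer than 20 CPM, and Hoxc9 (22.5, 19.5 and 0 CPM in dermis, against 0, 0.680 and 0 CPM in epidermis, 2.72, limma adjusted p = 0.122) did not pass although its dermal mean was 13.99 CPM.

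**Figure D4:**
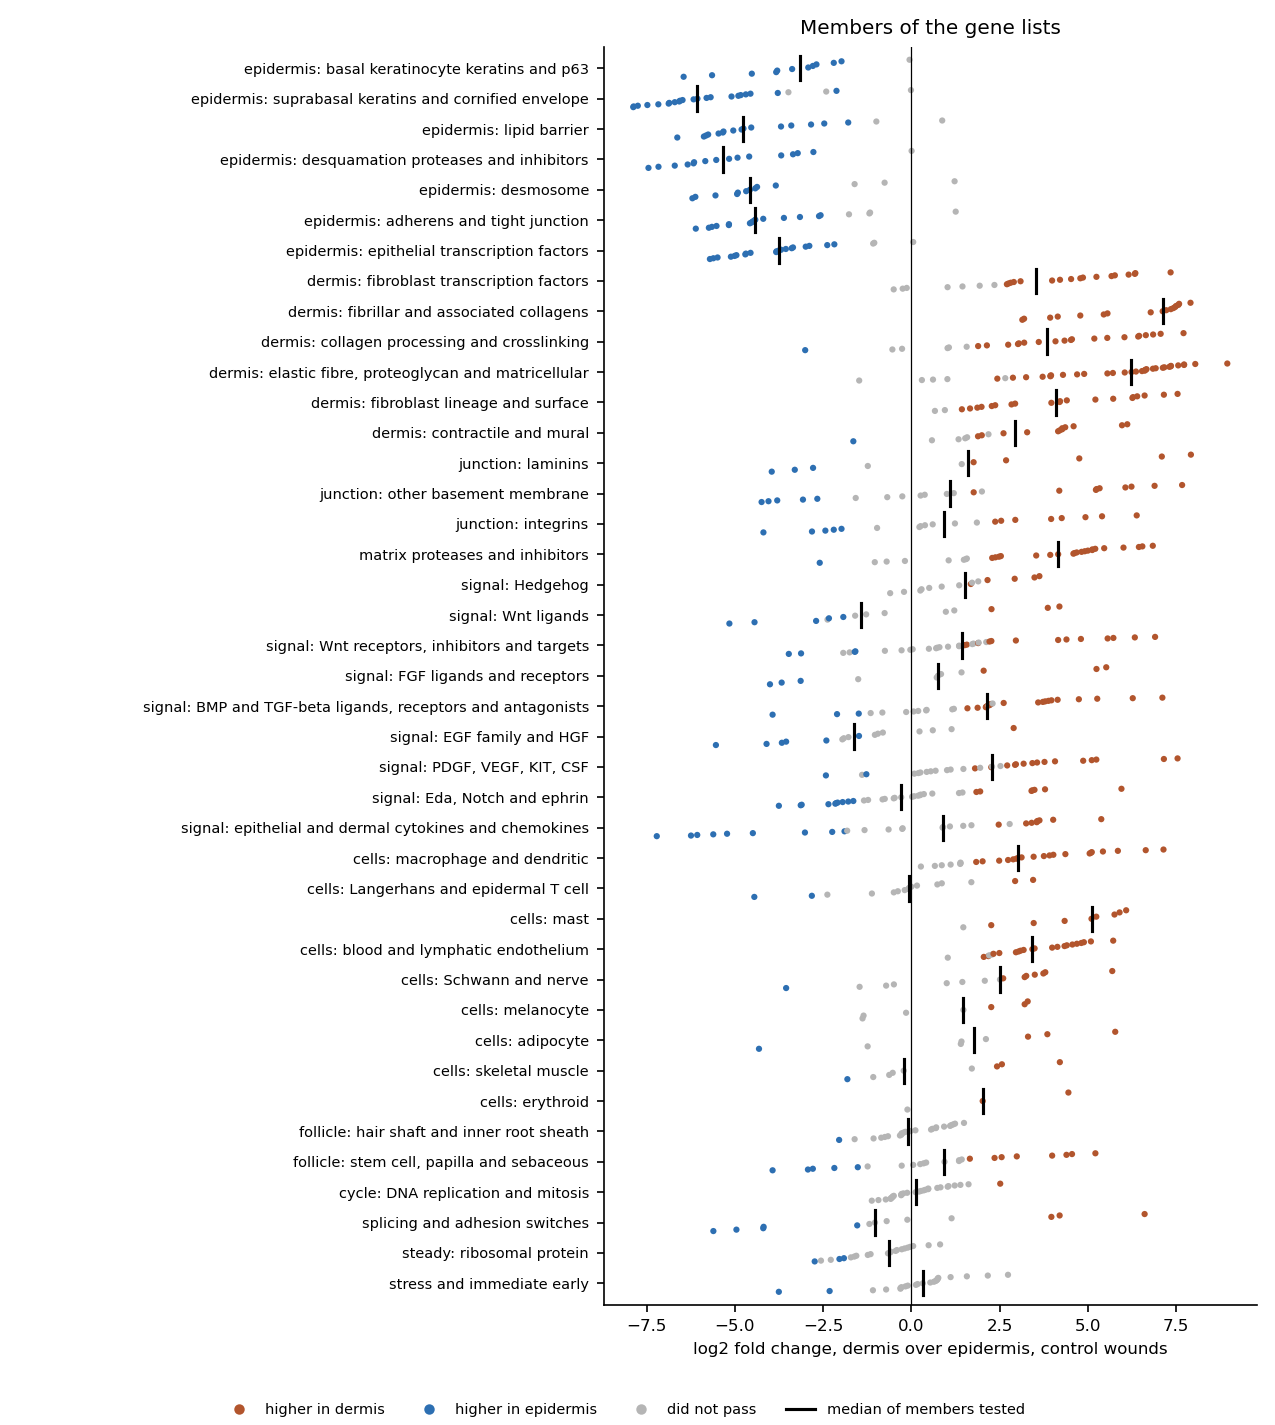
Members of the gene lists in control wounds. Each point is a gene with its log2 fold change of dermis over epidermis, coloured by its call, and the black bar is the median of the members tested. Collagen, matrix, vessel and mast cell genes lie on the dermal side, keratinocyte, cornified envelope and desmosome genes lie on the epidermal side, and cell cycle, ribosomal and hair shaft genes lie near 0.

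The tissue difference of control wounds was next set against that of Shh wounds, to ask whether the transgene changed the distance between the 2 sheets. The limma interaction called none of 15340 genes (0.0%), with 606 genes at an unadjusted p below 0.05, and edgeR on the recovered reads also called none, with 706 at an unadjusted p below 0.05. The fibrillar and associated collagens had a median tissue difference of 7.12 in control wounds and 6.35 in Shh wounds. For suprabasal and cornified genes it was -6.06 in control wounds and -6.48 in Shh wounds. The interaction of Col1a1 was 0.18 with a 95% interval of -1.87 to 2.24, and that of Krt10 was 0.45 (-0.51 to 1.41). For Col1a1 the interval leaves room for a difference of more than 2-fold in either direction. Among genes averaging 10 CPM or more, the smallest p-values belonged to Capn6, whose tissue difference was 4.48 in control wounds and 1.55 in Shh wounds, and Pltp, at 4.06 in control wounds and 1.68 in Shh wounds (both with a limma adjusted p of 0.938). Tnc, at 4.70 in control wounds and 1.89 in Shh wounds, and Col4a1, at 6.06 and 4.16 in the same order, were also among the 8 smallest on that side.

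Many genes differed when control wounds were set against E14.5 skin, a comparison that shares the control libraries with the one before. Of 16336 genes tested, the dermis minus epidermis difference was higher in control wounds for 1621 (9.92%) and lower for 2291 (14.02%). The balance of the 2 directions depended on the scaling. Under TMM scaling 1999 were higher and 1934 lower of 16300, and edgeR on the recovered reads gave 1910 higher and 1574 lower. The E14.5 libraries held 15663677 to 18745431 reads, more than any control library, and the effect of this depth was not tested. Of the fibrillar and associated collagens, 14 of 17 had a larger dermal excess in control wounds. The median tissue difference of this list was 7.12 in control wounds and 3.28 in E14.5 skin. Col5a1 differed by 7.12 in control wounds and 2.55 in E14.5 skin (interaction 4.57, limma adjusted p = 9.28e-06). Elastic fibre, proteoglycan and matricellular genes had 23 of 37 higher and 1 lower. Postn, dermal in control wounds (6.24), had in E14.5 skin 798 to 1547 CPM in dermis and 667 to 978 CPM in epidermis (interaction 5.68 ± 0.43, SE, limma adjusted p = 1.57e-06). Of the fibroblast transcription factors, 5 of 24 were higher and 1 lower. Twist2 differed by 5.77 in control wounds and 5.12 in E14.5 skin (interaction 0.64, adjusted p = 0.502). The 5 collagens summed above made up 267192 to 319997 CPM of control dermis and 28773 to 30349 CPM of E14.5 dermis, while their epidermal sums were 684 to 3439.7 CPM in control wounds and 876 to 2516 CPM in E14.5 skin. Markers of other cell types moved with stage as well. The 5 skeletal muscle markers summed to 6.93 to 28.4 CPM in control dermis and 394 to 2223 CPM in E14.5 dermis. The 2 erythroid markers summed to 13.6 to 38.4 CPM in control dermis and 2777 to 8299 CPM in E14.5 dermis. Their part in the stage difference was not tested.

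Epidermal genes gave different values in this comparison, also within a list. Of 25 suprabasal and cornified genes tested for it, 13 had a larger epidermal excess in control wounds than in E14.5 skin and none a smaller one, and their median tissue difference was -6.06 in control wounds and -2.51 in E14.5 skin. Flg differed by -7.48 in control wounds and -0.50 in E14.5 skin, where its epidermis held 0.184 to 1.66 CPM (interaction adjusted p = 1.02e-04). Cdsn, which encodes corneodesmosin, differed by -6.56 in control wounds and -0.03 in E14.5 skin. Krt1 and Krt10, the first suprabasal keratins, did not pass, with interactions of 0.22 (95% interval -1.02 to 1.45) and 0.00 (-1.24 to 1.24). The wound keratin Krt6b passed, at -6.45 in control wounds and -0.07 in E14.5 skin (interaction adjusted p = 7.21e-05). For the basal pair Krt5 and Krt14 the sign was the other way, but the basal list as a whole was mixed. Of its 12 genes tested, 3 had a higher dermis minus epidermis difference in control wounds and 4 a lower one. Krt5 differed by -2.69 in control wounds and -4.97 in E14.5 skin (interaction 2.28, adjusted p = 0.0108), and Krt14 by -2.92 in control wounds and -5.03 in E14.5 skin (adjusted p = 0.0141). The embryonic dermis held 13.3 to 49.6 CPM of Krt14 over 4 libraries, against the 161, 227 and 92.4 CPM of control dermis. The 10 keratinocyte markers together had 2403 to 3522 CPM in control dermis and 290.3 to 1232 CPM in E14.5 dermis. Desmosome genes had a median of -4.58 in control wounds and -5.03 in E14.5 skin, and of 13 tested, 2 passed, Dsg2 and Dsc2, both less epidermal in control wounds.

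**Figure D5:**
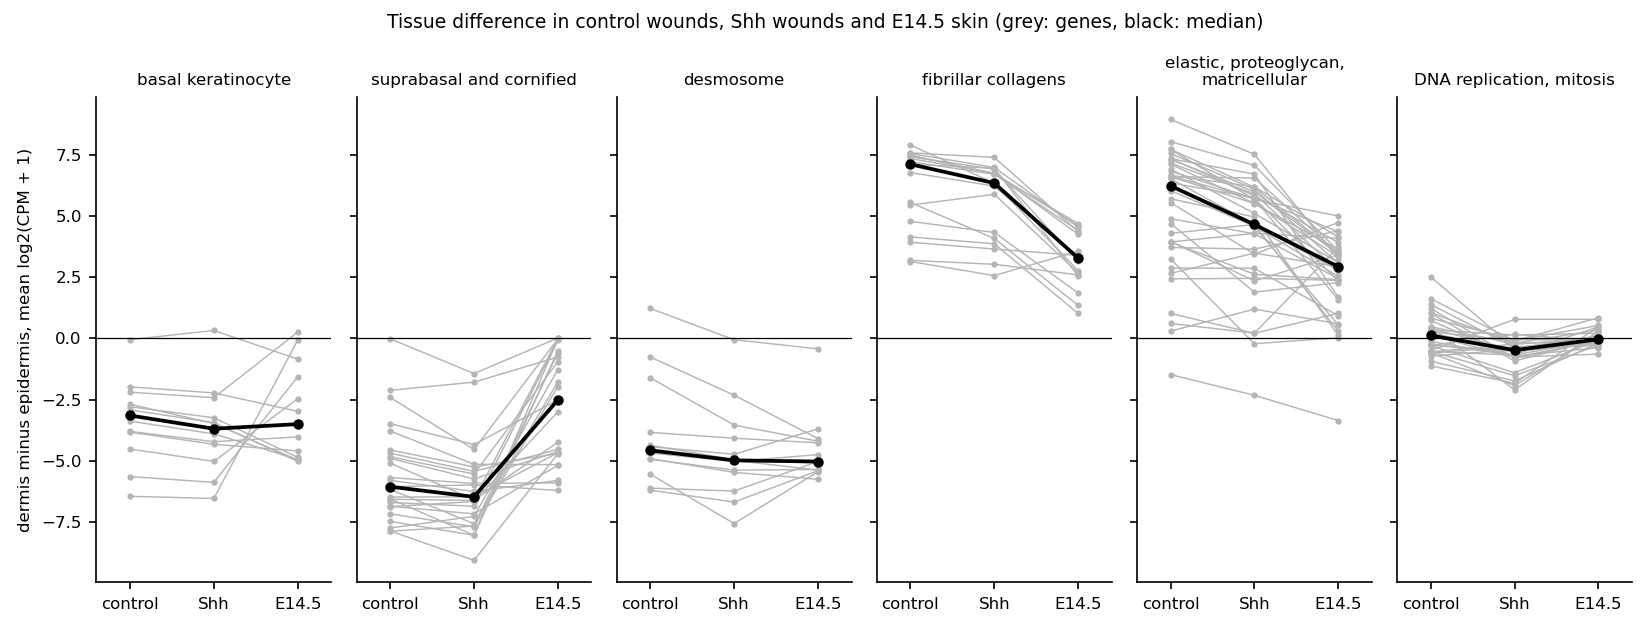
Dermis minus epidermis difference of mean log2(CPM + 1) in control wounds, Shh wounds and E14.5 skin. Grey lines are genes of 6 lists and black lines their medians. Medians of suprabasal genes and of collagens lie nearer 0 in E14.5 skin than in control wounds, and those of desmosome and replication genes lie near their control values.

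Some genes changed sides between the stages. Pltp, the phospholipid transfer protein, differed by 4.06 in control wounds and -2.69 in E14.5 skin, with 72.2, 51.4 and 155 CPM in dermis, against 4.32, 3.67 and 4.22 CPM in epidermis in the control wounds and 11.6 CPM in dermis and 78.5 CPM in epidermis on average in E14.5 skin (interaction 6.75, limma adjusted p = 6.21e-07). Megf6 differed by 3.87 in control wounds and -1.14 in E14.5 skin, and Fam101b, an actin regulator, by 6.30 and -0.98 in the same order. Cpa4, a carboxypeptidase, was epidermal in control wounds (4.29, 7.20 and 6.39 CPM in dermis, against 324, 397 and 273 CPM in epidermis) and had a tissue difference in E14.5 skin of 1.33 (interaction -6.92, adjusted p = 1.26e-07). Il18 did the same, at -6.24 in control wounds and 1.05 in E14.5 skin (adjusted p = 1.75e-07). Egr3, at -2.32 in control wounds and 1.15 in E14.5 skin, stood among the immediate early and stress genes with a lower dermis minus epidermis difference in control wounds. Of 23 genes of that list tested, 13 were lower in control wounds and 2 higher, beside 14.02% and 9.92% of all genes tested. Nhsl2, Fez1, Igfbp5 and Nr2f2 had interactions of 4.55, 3.90, 5.40 and 3.40 and were also among the 8 smallest p-values on the dermal side. Ces2f (-6.48), Nccrp1 (-6.26), Skint9 (-6.03) and Acsbg1 (-5.60) stood among those on the epidermal side.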

How the data were processed

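Stranded libraries (TruSeq Stranded Total RNA after Ribo-Zero Gold) were sequenced as paired-end reads of 50 bases. The submitters' processing notes name Bowtie, SAMtools and HTSeq with build NCBIM37, without versions. The authors deposited CPM per library, scaled to 1000000 reads assigned to genes, in 1 table per tissue. Their fold change and p-value columns were not used, and 1 column that matched no sample was left out.

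Differences were tested with limma 3.58.1 (R 4.3.3, eBayes without a trend) on log2(CPM + 1) for genes averaging 1 CPM or more over the libraries fitted, with Benjamini-Hochberg adjustment at 0.05, in 3 control dermis against 3 control epidermis libraries. Interactions are the dermis minus epidermis difference of control wounds minus that of the other group. The steps between deposited values gave whole reads for 100% of values (tolerance 0.01), and edgeR 4.0.16, which called 2215 genes higher in dermis and 1722 higher in epidermis, and DESeq2 1.42.0 were run on them as alternatives. Single sums were compared with an exact two-sided permutation test, which cannot go below 0.1. P-values of these fits measure the spread between the libraries of a group, differences in library quality included. Control wounds gave 3 libraries per tissue, and the main fits did not pair the tissues of an animal. The steps were also run on simulated reads. These had the same spread setting for every gene and no library that stood apart, so they cannot show how such libraries affect the calls.

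Named genes were the 15 largest differences in each direction with a mean of at least 10 CPM, the 8 smallest p-values per direction of each interaction, members of the 42 lists and genes of the keratin, Hox and epidermal differentiation clusters. The members and lists were chosen with earlier results of these data known. A shared animal number marks both tissues of 1 mouse. The deviations of same-numbered libraries from their group means correlated at 0.014, 0.061 and 0.069 over 15042 genes, and the animal was used as a block in an alternative fit. Other alternatives were TMM scaling, leaving out Mir5105, pseudocounts of 0.5 and 5, other filters, a trend, all groups in 1 fit, and leaving out libraries or animals. Leaving out the 2 libraries with the fewest genes detected was added after the data were seen. Symbols with more than 1 gene ID (100) are given by 1 of them. A few list members are counted in their lists but are not reported here by name.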

Additional observations from a re-analysis of the deposited data

Results flagged for a closer look

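The dermis minus epidermis difference of 23 genes named in the report differed between control wounds and E14.5 skin by the interaction test itself (limma, log2 scale, control wounds minus E14.5 skin, 3 and 4 animals per tissue). It was higher in control wounds for Fam101b (7.28), Pltp (6.75), Postn (5.68), Igfbp5 (5.41), Megf6 (5.01), Col5a1 (4.57), Nhsl2 (4.55), Fez1 (3.90), Nr2f2 (3.40), Dsc2 (3.34), Dsg2 (2.59), Krt5 (2.28) and Krt14 (2.11). It was lower in control wounds for Il18 (-7.29), Flg (-6.98), Cpa4 (-6.92), Cdsn (-6.53), Ces2f (-6.48), Krt6b (-6.39), Nccrp1 (-6.26), Skint9 (-6.03), Acsbg1 (-5.60) and Egr3 (-3.47). Adjusted p ran from 1.26e-07 to 0.0409, the largest being that of Dsc2. Age and wounding cannot be told apart in this comparison.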

How the results depend on the processing

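With the animal as a block, limma called 1907 genes higher in dermis and 2056 higher in epidermis, against 2130 and 2302 without it, and edgeR with the block called 1805 and 1446. Of 4432 genes called, 3777 were also called with the block, 3884 under TMM scaling and 3427 with edgeR, and none was called with the opposite sign under these. All 6 groups of the series in 1 fit gave 3522 and 4607 calls. Leaving out single libraries or animals gave 825 to 2139 genes higher in dermis and 573 to 2048 higher in epidermis, and leaving out the 2 libraries with the fewest genes detected gave 2462 and 2435. The 3912 genes of the stage interaction became 3245 to 4678 over its alternatives, and the genotype interaction called none under any. Of 250 named genes tested, 208 passed, and 144 of these passed with the same sign under every alternative. The block gained 2 and lost 4 of the named genes, TMM scaling gained 6 and lost 6, edgeR gained 11 and lost 12, DESeq2 gained 13 and lost 7, and edgeR with the block gained 13 and lost 18. Without Con-9098, 61 of the named calls were lost, without Con-9097 29 and without Con-9229 14. The calls lost with edgeR included Itga2 (adjusted p = 0.075), Krt2 (0.114), Wnt3a (0.173), Wnt2b (0.337), Wnt11 (0.115) and Pdgfb (0.105). No named gene that passed turned its sign under any alternative. Genes that did not pass and turned are given with log2 differences of dermis over epidermis in parentheses. Under TMM scaling, the sign turned for Dst (0.37), Foxc1 (0.10), Mki67 (0.30), Ptch1 (0.20) and Runx1 (0.17). Without Mir5105, the sign turned for Dst (0.00901). With edgeR, the sign turned for Dst (0.45), Foxc1 (1.197), Mbp (0.00302), Mki67 (0.26), Ptch1 (0.22), Runx1 (0.15), Scx (0.38) and Tchh (2.42). With DESeq2, the sign turned for Dst (0.49), Foxc1 (1.24), Mbp (0.0762), Mki67 (0.34), Ptch1 (0.22), Runx1 (0.21), Scx (0.41) and Tchh (2.41). With edgeR and the animal as a block, the sign turned for Dst (0.37), Foxc1 (0.14), Mki67 (0.31), Ptch1 (0.21) and Runx1 (0.18). With a pseudocount of 5, the sign turned for Foxc1 (0.19) and Krt71 (-2.78e-04). Leaving out libraries or animals, the 2 with the fewest genes detected included, turned the sign of Ctsl (-0.21 to 0.11), Dct (-1.05 to 0.27), Dsc2 (-2.51 to 0.17), Dst (-0.39 to 0.62), Fa2h (-0.10 to 1.59), Foxc1 (-1.38 to 1.05), Gli1 (-0.52 to 1.67), Has1 (-0.28 to 1.51), Krt71 (-1.91 to 2.33), Lef1 (-0.50 to 2.53), Mbp (-0.95 to 0.0304), Mki67 (-0.41 to 0.12), Ptch1 (-0.53 to 0.53), Scx (-1.32 to 0.32), Tchh (-3.46 to 2.38) and Tgfbi (-0.0197 to 0.95). The cause of these changes was not tested. With 1407498 to 7354990 reads per library, genes of a few CPM rest on few reads, and the floors of 3 reads cover counting error only.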
